A study of Homo sapiens with 6 samples.

Results

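The 52 genes described here encode proteins that a cell makes for the G2 phase and for mitosis, such as CDK1 and its cyclins, the mitotic kinases, and the parts of the kinetochore, spindle and condensed chromosome. They were taken by symbol and not by a cut on their values, but the list was chosen with earlier results of these data known. All 52 had a row among the 59248 gene symbols of the deposited table. The study sequenced bulk RNA from Jurkat, a long-established cell line grown out of a human T-cell leukemia. In 3 libraries the cells overexpressed PDCD1 28, a transcript of the PD-1 receptor gene in which the first 28 bases of intron 2 are kept, and in 3 libraries they carried the vector. Cells of both groups are named Jurkat KO-1 in the growth protocol, with no word on what KO-1 means or whether the cells are 1 clone. The comparison asks which transcripts differ when this transcript form is overexpressed.

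Genes of this kind are transcribed late in the cell cycle. In resting or G1 cells the DREAM complex holds their promoters silent, largely through a short promoter element called the CHR, and after S phase the MuvB core of that complex joins B-MYB and FOXM1 and the same promoters are switched on. Their products drive entry into mitosis and attach and separate the chromosomes, and some of them are then destroyed by the anaphase promoting complex. In dividing T cells, and in leukemia lines such as Jurkat, they are commonly used as markers of cells in G2 and M phase, so in a bulk library fewer such cells and less RNA per cell cannot be told apart.

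Libraries held 61486369 to 72314037 estimated counts in overexpression and 59911578 to 84220970 in vector. PDCD1 itself, whose counts do not separate the isoform, had 945, 1059 and 807 estimated counts in overexpression, against 14, 18 and 15 in vector. All 11 T cell markers examined were expressed, with a summed level of 2642 to 2685 CPM (estimated counts per 1000000 of the scaled library) in overexpression and 2711 to 2934 CPM in vector. Of these 7 were lower in overexpression and 2 higher, where 23.4% and 22.6% of all genes tested were. The sum hides large single changes. CD2 fell 5.92-fold, from a mean of 25.6 to 4.32 CPM, and CD7 4.25-fold, from 74.4 to 17.5 CPM. The 2 rises were ZAP70 (1.18-fold) and TRBC1 (1.34-fold). Of the B cell, myeloid and epithelial markers, EPCAM and KRT5 were listed at 0 in every library, while BLK had 0 estimated counts in overexpression and 465 to 481 in vector. The summed levels were 28.8 to 37.0 CPM in overexpression against 48.5 to 66.1 CPM in vector for 4 of 6 B cell markers, 35.8 to 38.9 against 50.03 to 56.5 CPM for 3 of 6 myeloid markers, and 0.724 to 1.38 against 0.177 to 0.431 CPM for 1 of 6 epithelial markers. The part of these markers in the results below was not tested. Vector replicate 2 stood apart on the second principal component (-29.7, against 14.6 in each of the other vector libraries). Values without it are given for members whose call it changes and for some other results.

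The promoters of these genes carry the CHR letters more often than promoters in general. RefSeq promoter windows on GRCh38.p14, from 250 bases before the annotated start to 50 after it, were at hand for 44 of the 52 genes in 53 windows. TTTGAA, the commonest form of the CHR, was searched on both strands and found in 35 of the 53 windows (66.0%), against 15.2% of all 35116 windows. CCAAT, the box bound by the factor NF-Y, was found on either strand in 36 of the 53 windows (67.9%), against 34.6% of all windows. Both were present in 28 of the 53 (52.8%), against 5.90% of all windows. Some genes had more than 1 window. Counted by gene, CCAAT was found in 32 of the 44 (72.7%), against 43.8% of 9392 protein-coding genes averaging 100 or more estimated counts. For TTTGAA the shares were 72.7% and 13.5%, and for both in 1 window 59.1% and 5.60%. A match of one may overlap a match of the other by a base, and a match is a description of the sequence, not a proven site. AURKA, TTK, BIRC5, UBE2C, TPX2, HMGB2, CDCA2 and ANP32E had no window here.

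The 6 promoters below are shown because they belong to genes the results turn on, namely 2 pairs of closely related genes with unlike changes, a mitotic kinase gene that rose and a kinetochore gene with a large fall. Each is printed in the direction of transcription, with TTTGAA and CCAAT on either strand in capitals, from chr5:69166900-69167199 (plus strand) for CCNB1, chr15:59104896-59105195 (plus) for CCNB2, chr1:154974431-154974730 (plus) for CKS1B, chr9:89310945-89311244 (plus) for CKS2, chr16:23678639-23678938 (plus) for PLK1 and chr1:214602945-214603244 (plus) for CENPF.
CCNB1: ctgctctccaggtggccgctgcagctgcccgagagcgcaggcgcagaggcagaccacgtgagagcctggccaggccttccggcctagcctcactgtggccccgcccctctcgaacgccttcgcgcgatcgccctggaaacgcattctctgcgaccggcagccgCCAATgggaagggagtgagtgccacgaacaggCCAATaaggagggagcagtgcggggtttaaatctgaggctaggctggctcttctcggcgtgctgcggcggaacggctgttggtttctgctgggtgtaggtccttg
CCNB2: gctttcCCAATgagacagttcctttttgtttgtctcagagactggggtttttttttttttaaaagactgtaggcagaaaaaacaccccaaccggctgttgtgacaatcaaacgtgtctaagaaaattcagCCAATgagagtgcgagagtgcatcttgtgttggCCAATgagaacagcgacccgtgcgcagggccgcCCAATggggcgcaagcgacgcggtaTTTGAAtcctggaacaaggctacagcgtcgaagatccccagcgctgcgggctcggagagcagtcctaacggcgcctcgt
CKS1B: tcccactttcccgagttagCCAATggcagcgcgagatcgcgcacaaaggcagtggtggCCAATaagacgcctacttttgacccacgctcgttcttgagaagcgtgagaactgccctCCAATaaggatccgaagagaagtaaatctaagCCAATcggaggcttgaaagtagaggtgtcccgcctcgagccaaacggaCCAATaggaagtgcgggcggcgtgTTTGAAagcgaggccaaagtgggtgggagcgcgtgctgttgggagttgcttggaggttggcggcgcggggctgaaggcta
CKS2: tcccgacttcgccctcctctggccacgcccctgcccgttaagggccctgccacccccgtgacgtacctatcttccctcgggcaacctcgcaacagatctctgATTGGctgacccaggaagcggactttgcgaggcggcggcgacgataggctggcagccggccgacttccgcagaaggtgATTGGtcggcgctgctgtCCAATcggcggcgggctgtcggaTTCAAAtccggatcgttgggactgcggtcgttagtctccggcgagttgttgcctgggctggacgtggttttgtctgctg
PLK1: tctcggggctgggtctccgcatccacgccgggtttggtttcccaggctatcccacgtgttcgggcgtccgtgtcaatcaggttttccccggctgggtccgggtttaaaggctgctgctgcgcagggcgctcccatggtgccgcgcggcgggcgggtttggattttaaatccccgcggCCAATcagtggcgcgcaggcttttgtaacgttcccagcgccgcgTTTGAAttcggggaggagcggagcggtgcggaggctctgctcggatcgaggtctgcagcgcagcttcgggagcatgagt
CENPF: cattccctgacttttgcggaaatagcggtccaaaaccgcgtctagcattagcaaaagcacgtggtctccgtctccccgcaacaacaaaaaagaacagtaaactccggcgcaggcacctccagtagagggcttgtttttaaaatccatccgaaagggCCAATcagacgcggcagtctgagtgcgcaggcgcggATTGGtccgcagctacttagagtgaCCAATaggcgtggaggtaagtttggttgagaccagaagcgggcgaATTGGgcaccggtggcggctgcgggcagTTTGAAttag
The TTTGAA match began 29 bases before the annotated start in CCNB2, CKS2 and PLK1 and 30 bases before it in CKS1B, in each case downstream of 1 or more CCAAT boxes. In CENPF it lay 40 bases after the start, and the CCNB1 window held 2 CCAAT boxes and no TTTGAA.

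Neither group of libraries had the G2 and M phase genes uniformly higher. Of the 52 genes 51 passed the expression filter of edgeR, and GAS2L3, whose product links actin and microtubules, was listed at 1 estimated count in each of the 6 libraries and was not tested. In overexpression 19 of the 51 fell and 9 rose (edgeR adjusted p below 0.05 over all 21055 genes tested), where 23.4% of all genes tested fell and 22.6% rose, and 46.1% were called in either direction. The median log2 fold change of the 51 was -0.11, against 0.016 over all genes tested. Single values ran from -0.9999 in NUSAP1 to 0.94 in HMGB2. Other expressed genes with a promoter window fell more often than all genes tested did. Of 8849 such genes whose window did not hold both TTTGAA and CCAAT, 3010 fell and 2306 rose, with a median of -0.052. Of 500 with both, 179 fell and 130 rose, with a median of -0.042. The 19 falls among the 51 lay nearer to these shares than to that of all genes tested. The lists below are set beside all genes tested only. All 3 overexpression libraries lay below all 3 vector libraries for 20 of the 51 and above them for 13, where 28.6% and 30.1% of all genes did so. Changes below are log2 fold changes, overexpression over vector, with their SE, unless given as a fold.

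The count of falls depended on vector replicate 2. Without it 30 of the 51 genes fell and the same 9 rose, where 25.4% and 24.1% of all 21950 genes tested did, and the median log2 fold change was -0.19. The 19 genes called lower with all libraries were among the 30, and the 11 added were CKS1B, TTK, NEK2, ANLN, ECT2, KIF23, CDC20, G2E3, HJURP, KIF11 and SMC4. The count of rises depended on overexpression libraries too, with 4 without overexpression replicate 2 and 3 without replicate 3. HMGB2, UBE2C and PLK1 passed in all 14 alternative analyses, and so did 14 of the 19 falls, among them CCNB1, CKS2, CENPF, TOP2A, BIRC5, LBR and TUBB4B. Fitted sizes moved even where calls held. Without vector replicate 2 the log2 fold change was 0.84 in HMGB2, 0.70 in UBE2C and 0.28 in PLK1, against 0.94, 0.81 and 0.35. It was -0.56 against -0.46 in TOP2A, while CKS2 went the other way, at -0.76 against -0.803. A change given below without a second value may have moved too.

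**Figure D1:**
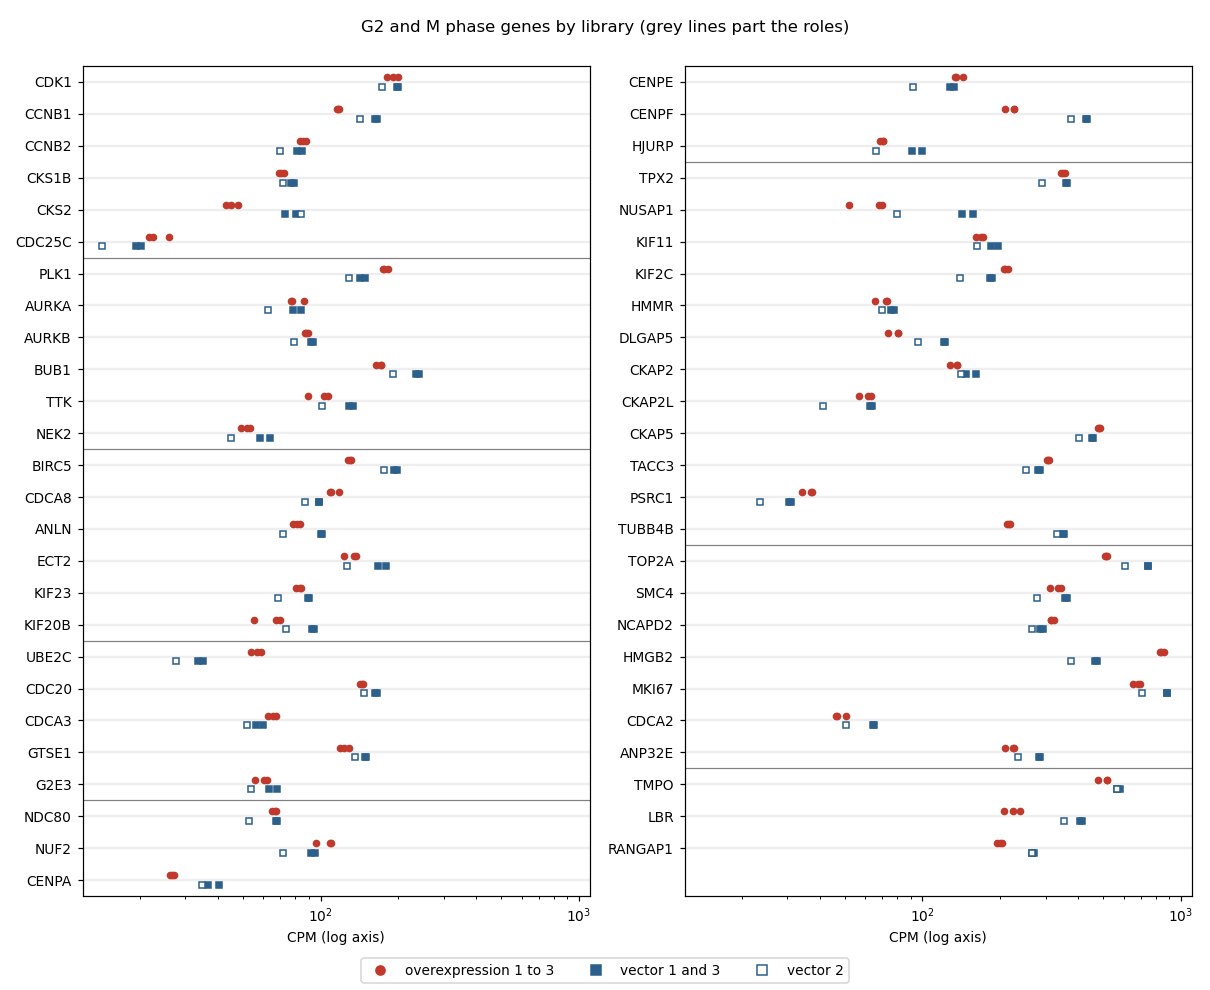
Level of each of the 51 genes tested in CPM (log axis), with 1 red circle per overexpression library above the blue squares of the vector libraries, and vector replicate 2 as an open square. The circles of HMGB2 and UBE2C lie right of all their squares, those of CENPF, LBR and TUBB4B left of them, and the open square is the lowest of the vector libraries in 49 of the 51 genes.

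**Figure D2:**
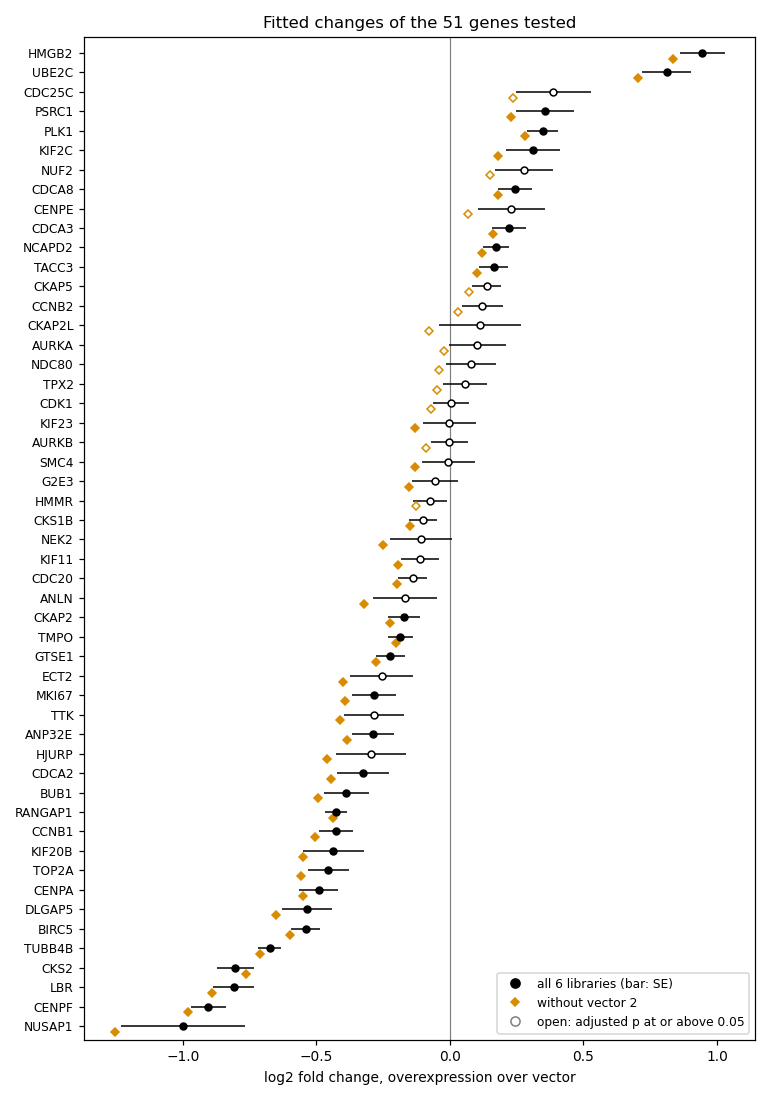
Fitted log2 fold change of each gene, overexpression over vector, from all 6 libraries (black circles, bars show SE) and without vector replicate 2 (orange diamonds), with open symbols where the adjusted p was at or above 0.05. The 9 rises and 19 falls are the filled circles, and most diamonds lie left of their circles, with 30 falls and 9 rises filled.

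Of the 6 genes of CDK1, its cyclins and their partners 2 fell and 4, CDK1 among them, were not called. Over all genes tested 23.4% fell and 22.6% rose, and each count by role is to be read beside these shares. CDK1, the kinase that drives entry into mitosis, had 190.04, 199 and 181 CPM in overexpression, against 198, 173 and 199 CPM in vector. These values overlapped, and the fitted difference was 0.00349 ± 0.067 on the log2 scale (edgeR adjusted p = 0.97). CCNB1 encodes cyclin B1, its main activating partner, and had 117, 117 and 116 CPM in overexpression, against 166, 142 and 163 CPM in vector. All overexpression libraries lay below all vector libraries, a 1.34-fold fall (edgeR log2 fold change -0.43 ± 0.064 SE, adjusted p = 0.00097). CCNB2, which encodes cyclin B2, had 85.4, 88.1 and 82.998 CPM in overexpression, against 84.97, 69.5 and 81.4 CPM in vector and was not called (log2 fold change 0.12 ± 0.077, edgeR adjusted p = 0.23, 0.031 without vector replicate 2).

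CKS2, a small subunit that docks CDK complexes on their phosphorylated substrates, fell 1.74-fold. It had 47.9, 42.9 and 44.9 CPM in overexpression, against 80.1, 83.99 and 72.6 CPM in vector, with no overlap (edgeR log2 fold change -0.803 ± 0.07 SE, adjusted p = 6.3e-05). Its relative CKS1B, which also serves the SCF ligase in the destruction of p27, had 70.5, 72.1 and 69.2 CPM in overexpression, against 76.97, 71.5 and 78.7 CPM in vector. Counts of CKS1B are uncertain to the extent that reads are shared with its pseudogenes. The difference was called only without vector replicate 2, at -0.15 (edgeR adjusted p = 0.011, against 0.16 with all libraries). CDC25C, the phosphatase gene that activates CDK1, had 21.8, 22.6 and 25.997 CPM in overexpression, against 19.3, 14.3 and 20.3 CPM in vector. The groups did not overlap, but the test gave 0.39 ± 0.14 with an adjusted p of 0.054 in edgeR, and 0.024 in DESeq2. Without vector replicate 2 the change was 0.24 (edgeR adjusted p = 0.073).

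Among the 6 mitotic kinase genes, PLK1 rose and BUB1 fell, where 22.6% of all genes tested rose and 23.4% fell. PLK1, the Polo-like kinase that acts from mitotic entry to cytokinesis, had 174, 176 and 182 CPM in overexpression, against 142, 129 and 148 CPM in vector. All overexpression libraries were above all vector libraries, a 1.27-fold rise (edgeR log2 fold change 0.35 ± 0.059 SE, adjusted p = 0.0019). BUB1, a spindle checkpoint kinase at the kinetochore, had 171, 172 and 165 CPM in overexpression, against 233, 191 and 240.2 CPM in vector. The groups did not overlap, and the change was -0.39 ± 0.084 on the log2 scale (edgeR adjusted p = 0.0059). The Aurora kinase genes AURKA and AURKB, which serve spindle poles and the chromosomal passenger complex, had log2 fold changes of 0.103 ± 0.11 and -0.00188 ± 0.07 and were not called (edgeR adjusted p = 0.46 and 0.99). TTK, the checkpoint kinase MPS1, and NEK2, a centrosome kinase, lay at -0.28 ± 0.11 and -0.11 ± 0.12; without vector replicate 2 they were -0.41 and -0.25 and passed (edgeR adjusted p = 0.0009 and 0.0049). TTK also passed in DESeq2 with all libraries (adjusted p = 0.022).

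Of 6 genes of the passenger complex and cytokinesis 2 fell and 1 rose, where 23.4% and 22.6% of all genes tested did. BIRC5 and CDCA8 moved in opposite directions. BIRC5 encodes survivin, which places Aurora B on the centromere, and fell 1.45-fold. It had 130.1, 131 and 128 CPM in overexpression, against 197, 176 and 192 CPM in vector, without overlap (edgeR log2 fold change -0.54 ± 0.054 SE, adjusted p = 0.00012). CDCA8, which encodes borealin of the same complex, had 109.9, 109 and 118 CPM in overexpression, against 98.4, 87.5 and 98.6 CPM in vector. It rose 1.19-fold (edgeR log2 fold change 0.24 ± 0.063 SE, adjusted p = 0.013), although without overexpression replicate 3 the adjusted p was 0.057. KIF20B, a kinesin gene of cytokinesis, fell by 0.44 on the log2 scale (edgeR adjusted p = 0.015, or 0.0502 without overexpression replicate 3). The other cytokinesis genes ANLN, ECT2 and KIF23, which encode anillin, a RhoA activator and a central spindle kinesin, were called in edgeR without vector replicate 2 but not with all libraries, with changes of -0.32, -0.399 and -0.13 against -0.17, -0.26 and -0.00147 with all libraries. In DESeq2 with all libraries ECT2 passed (adjusted p = 0.048).

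Of 5 ubiquitin ligase and G2 regulator genes 2 rose and 1 fell, where 22.6% and 23.4% of all genes tested did. UBE2C had the second largest rise of the 51. It encodes the E2 enzyme that starts ubiquitin chains for the anaphase promoting complex (chromosome 20, 45812576 to 45816957, plus strand, hg38), and it had 53.7, 58.6 and 56.6 CPM in overexpression, against 35.2, 27.6 and 33.4 CPM in vector. All overexpression libraries lay far above all vector libraries, and the mean levels were 56.3 ± 2.48 CPM in overexpression and 32.1 ± 3.98 CPM in vector (SD, n = 3 each), a 1.76-fold rise (edgeR log2 fold change 0.81 ± 0.093 SE, adjusted p = 0.00024). CDC20, which activates that ligase at anaphase, had 145, 142 and 146 CPM in overexpression, against 166, 148 and 162 CPM in vector. Its groups did not overlap, yet it was not called with all libraries (edgeR adjusted p = 0.065) and was called without vector replicate 2 at -0.197 (0.0012) and in DESeq2 with all libraries (adjusted p = 0.038). CDCA3, an adaptor that in frog eggs targets the CDK-inhibiting kinase WEE1, rose by 0.22 ± 0.065 (edgeR adjusted p = 0.023), a call lost without overexpression replicate 2 or 3 or vector replicate 1 (0.088, 0.073 and 0.068). GTSE1, a microtubule-binding protein gene of G2, fell by 0.22 (edgeR adjusted p = 0.012), and G2E3, a ubiquitin ligase gene, lay at -0.056 ± 0.088 and was not called, or at -0.15 with an adjusted p of 0.0493 without vector replicate 2.

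Of 6 kinetochore and centromere genes 2 fell and 4 were not called, where 23.4% of all genes tested fell. CENPF had the second largest fall of all 51. It encodes a large protein of the outer kinetochore and nuclear envelope (chromosome 1, 214603195 to 214664588, plus strand, hg38). It had 225, 225 and 209 CPM in overexpression, against 429, 374 and 432 CPM in vector, and the groups were far apart. Mean levels were 219.97 ± 9.49 CPM in overexpression and 412 ± 32.7 CPM in vector (SD, n = 3 each), a 1.87-fold fall (edgeR log2 fold change -0.904 ± 0.066 SE, adjusted p = 2.6e-05). CENPA, the histone H3 variant that marks the centromere, had 26.1, 27.03 and 26.7 CPM in overexpression, against 36.8, 34.9 and 40.6 CPM in vector. It fell 1.41-fold without overlap (edgeR log2 fold change -0.49 ± 0.073 SE, adjusted p = 0.00095), and its chaperone HJURP was at -0.29 ± 0.13 and did not pass in edgeR with all libraries (adjusted p = 0.099). It passed without vector replicate 2 (log2 fold change -0.46, edgeR adjusted p = 4.3e-05) and in DESeq2 with all libraries (adjusted p = 0.041).

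The kinetochore genes NDC80, NUF2 and CENPE were not called in edgeR with all libraries. NDC80 and NUF2, which form one arm of the NDC80 complex, lay at 0.078 ± 0.094 and 0.28 ± 0.11 (edgeR adjusted p = 0.53 and 0.068). The NUF2 groups did not overlap, with overexpression above vector, and NUF2 passed in DESeq2 (adjusted p = 0.035). Without vector replicate 2 the changes were -0.042 in NDC80 and 0.15 in NUF2 (edgeR adjusted p = 0.42 and 0.063). CENPE, the kinesin gene that carries chromosomes to the spindle equator, had 144, 135 and 134 CPM in overexpression, against 128, 91.7 and 133 CPM in vector. Its overexpression libraries all lay above the vector libraries, by a margin that was wide only against vector replicate 2, and it was not called (0.23 ± 0.13, edgeR adjusted p = 0.17). Its change was 0.069 without that library (edgeR adjusted p = 0.21).

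Of 12 spindle and microtubule genes tested, 4 fell and 3 rose, where 23.4% and 22.6% of all genes tested did. NUSAP1, a microtubule stabiliser near chromosomes, had 67.9, 52.1 and 69.4 CPM in overexpression, against 143, 79.8 and 156 CPM in vector. The groups did not overlap, but vector replicate 2 and overexpression replicate 2 were each the lowest of their group, and the SE was the largest among the 51 (edgeR log2 fold change -0.9999 ± 0.23 SE, adjusted p = 0.0085; -1.25 without vector replicate 2). TUBB4B, a beta tubulin gene, had 219, 211 and 217 CPM in overexpression, against 354, 331 and 349 CPM in vector. It fell 1.60-fold (edgeR log2 fold change -0.67 ± 0.044 SE, adjusted p = 1.6e-05); beta tubulin genes share long stretches of sequence, so its counts are uncertain to that extent. DLGAP5, which encodes the spindle protein HURP, had 80.1, 80.5 and 73.6 CPM in overexpression, against 122, 96.1 and 121 CPM in vector and fell 1.45-fold (edgeR log2 fold change -0.54 ± 0.094 SE, adjusted p = 0.0022).

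The rises among the spindle genes were smaller. PSRC1, which helps recruit a microtubule depolymerase, had 34.05, 36.97 and 37.3 CPM in overexpression, against 30.9, 23.6 and 30.3 CPM in vector, a log2 fold change of 0.35 ± 0.11 (edgeR adjusted p = 0.027; 0.23 without vector replicate 2). The kinesin-13 depolymerase gene KIF2C had 207, 209 and 214 CPM in overexpression, against 186, 139.96 and 183 CPM in vector, or 0.31 ± 0.1002 (0.034; 0.18 without vector replicate 2). TACC3, a clathrin and ch-TOG partner on spindle fibres, rose by 0.16 ± 0.054 (0.036; 0.103 without vector replicate 2). Leaving out single overexpression libraries ended all 3 of these calls, with adjusted p up to 0.093 for PSRC1, 0.103 for KIF2C and 0.103 for TACC3. CKAP2, a spindle pole protein gene, fell by 0.17 (edgeR adjusted p = 0.047) and lost its call in 10 of the 14 alternatives, with adjusted p up to 0.15. TPX2, KIF11, HMMR, CKAP2L and CKAP5, which encode an Aurora A activator, the kinesin-5 motor, a spindle hyaluronan receptor protein, a relative of CKAP2 and the polymerase ch-TOG, had log2 fold changes from -0.11 to 0.14 and were not called. Without vector replicate 2 they ran from -0.19 to 0.071, and KIF11 passed (edgeR adjusted p = 0.0041).

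Of 7 chromosome and chromatin genes 4 fell and 2 rose, where 23.4% and 22.6% of all genes tested did. HMGB2 had the largest rise of the 51. It encodes a chromatin protein that bends DNA (chromosome 4, 173331695 to 173335125, minus strand, hg38), and it had 829, 857 and 836 CPM in overexpression, against 472, 374 and 464 CPM in vector. The groups were far apart, and mean levels were 841 ± 14.7 CPM in overexpression and 437 ± 54.3 CPM in vector (SD, n = 3 each), a 1.92-fold rise (edgeR log2 fold change 0.94 ± 0.084 SE, adjusted p = 6.9e-05). TOP2A, the topoisomerase that untangles sister chromatids, had 516, 511 and 507 CPM in overexpression, against 747, 611 and 746 CPM in vector. It fell 1.37-fold without overlap (edgeR log2 fold change -0.46 ± 0.077 SE, adjusted p = 0.0017).

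MKI67 encodes Ki-67, the coat protein of mitotic chromosomes by which dividing cells are stained in pathology. It had 692, 655 and 685 CPM in overexpression, against 880.1, 708 and 886 CPM in vector, and the highest overexpression library lay just under vector replicate 2. The fall was 1.22-fold (edgeR log2 fold change -0.28 ± 0.084 SE, adjusted p = 0.024), -0.39 on the log2 scale without vector replicate 2, and not called without any one of the other 5 libraries (adjusted p from 0.058 to 0.086). CDCA2, which brings phosphatase 1 to chromosomes, and ANP32E, a histone H2A.Z chaperone gene, fell by 0.33 and 0.29 (edgeR adjusted p = 0.026 and 0.017), and each lost its call when some single libraries were left out, with adjusted p up to 0.089 for CDCA2 and 0.068 for ANP32E. Of the condensin genes, NCAPD2 rose by 0.17 ± 0.05 (0.022), or was not called without any one overexpression library, without vector replicate 3 or with the replicate block (adjusted p up to 0.081), and SMC4 lay at -0.00539 ± 0.099 and was called only without vector replicate 2 (-0.13, 0.025).

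All 3 genes of the nuclear envelope and the Ran cycle fell, where 23.4% of all genes tested did. LBR, the lamin B receptor that ties chromatin to the inner membrane, had 239, 223 and 208 CPM in overexpression, against 406, 352 and 416 CPM in vector, a 1.75-fold fall (edgeR log2 fold change -0.81 ± 0.076 SE, adjusted p = 9.1e-05). RANGAP1, which activates the GTPase of Ran at the nuclear pore, had 194, 199.5 and 203 CPM in overexpression, against 269, 266 and 265 CPM in vector. The 3 vector libraries lay close together, all above overexpression (edgeR log2 fold change -0.43 ± 0.041 SE, adjusted p = 9.6e-05). TMPO, which encodes the lamina proteins LAP2, had 517, 516 and 477 CPM in overexpression, against 568, 567 and 582 CPM in vector, a fall of 0.19 on the log2 scale (edgeR adjusted p = 0.011). In RANGAP1 and TMPO vector replicate 2 lay with the other vector libraries, and their fitted changes without it were -0.44 and -0.201.

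A ratio of related genes taken within each library needs no scaling between libraries. The log2 ratio of CCNB2 to CCNB1 was -0.46, -0.403 and -0.48 in overexpression, against -0.96, -1.03 and -1.0039 in vector. The ratio of CKS1B to CKS2 was 0.56, 0.75 and 0.62 in overexpression, against -0.057, -0.23 and 0.12 in vector. In both pairs all overexpression libraries lay above all vector libraries, by mean differences of 0.55 and 0.702, or 0.54 and 0.61 without vector replicate 2. The ratio of CKAP2L to CKAP2 was -1.11, -1.14 and -1.17 in overexpression, against -1.21, -1.77 and -1.36 in vector; here the groups did not overlap either, but the difference of 0.31 was 0.14 without vector replicate 2. The ratio of AURKA to AURKB overlapped between groups, with means of -0.13 ± 0.102 in overexpression and -0.24 ± 0.099 in vector (SD, n = 3 each). An exact two-sided permutation test gave p = 0.1 for the first 3 pairs, the smallest that 3 libraries against 3 allow, and p = 0.3 for AURKA and AURKB; adjusted over the 4 pairs these were 0.133 and 0.3.

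**Figure D3:**
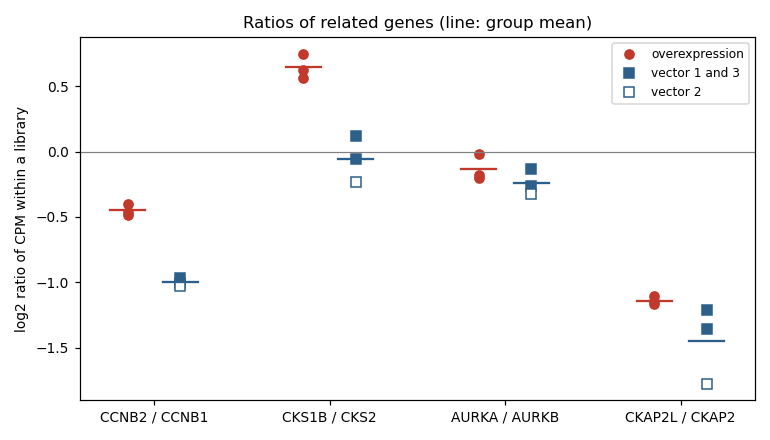
Log2 ratio of CPM of related genes within each library, red circles for overexpression left of blue squares for vector (open square for replicate 2), with lines at the group means. The CCNB2 to CCNB1 ratios cluster near -0.45 in overexpression and near -1.0 in vector.

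Per kilobase of the longest protein-coding transcript in GENCODE 29, HMGB2 had the highest mean level of the 51 genes in both groups, at 445 CPM per kilobase in overexpression and 231 in vector. TUBB4B, TMPO and TACC3 followed in overexpression, at 132, 119 and 109.8 CPM per kilobase. In vector TUBB4B, TMPO and CKS2 followed, at 210.4, 135 and 129 CPM per kilobase. The lowest levels in overexpression were those of KIF20B, G2E3 and CDC25C, at 9.98, 10.2 and 11.02 CPM per kilobase. In vector the lowest were those of CDC25C, G2E3 and CKAP2L, at 8.43, 10.6 and 12.3 CPM per kilobase. CKS2 stood at 73.8 CPM per kilobase in overexpression against 129 in vector, and CKS1B at 77.4 against 83.01.

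Vector replicate 2 held less RNA of these genes than the other vector libraries across nearly the whole list. It was the lowest vector library in 49 of the 51 genes, the exceptions being CKS2 and RANGAP1. Over the 11529 protein-coding genes that averaged 100 or more estimated counts it was lowest in 44.5%. Taken as the log2 difference from the mean of vector replicates 1 and 3, its median over the 51 genes was -0.28, against -0.0094 over the protein-coding genes and 0.029 over 44 S phase genes. The summed level of the 51 genes was 9007, 8982 and 8756 CPM in overexpression, against 10169, 8609 and 10256 CPM in vector. On this sum the overexpression libraries lay between vector replicate 2 and the other vector libraries. That order depended on HMGB2, which made up 829, 857 and 836 CPM of the sums in overexpression, against 472, 374 and 464 CPM in vector. With HMGB2 left out, the sums of all overexpression libraries lay below those of all vector libraries. Within overexpression the medians were 0.027, 0.031 and -0.043, with replicate 3 the lowest library in 33 of the 51 genes.

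The members differed in how far vector replicate 2 departed. NUSAP1 had the widest gap at -0.904, followed by CKAP2L at -0.62, HJURP at -0.52 and CENPE at -0.51. The smallest gaps were -0.00365 in RANGAP1, -0.0185 in TMPO and -0.085 in TUBB4B. CKS2 was the one gene with a higher value in vector replicate 2 than in both other vector libraries, at 0.14. Members with a TTTGAA match had a median of -0.24 (31 of 32 below 0) and those with a window but no match also -0.24 (11 of 11 below 0).

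Base composition moved with this library. Over all protein-coding genes its median difference ran from -0.11 in the lowest to 0.074 in the highest of 5 equal bins of transcript GC content. Within these bins the G2 and M phase genes lay lower, at -0.34 (19 genes) in the lowest, -0.28 (10) in the second, -0.32 (11) in the third, -0.15 (10) in the fourth and -0.085 (1) in the highest. All protein-coding genes had -0.11, -0.055, 0.011, 0.045 and 0.074 in the same bins. CDKN1A, which encodes the CDK inhibitor p21 and was looked at after its values had been seen, stood at 0.672 to 0.97 CPM in overexpression, against 0.966, 3.12 and 0.946 CPM in vector, and was not called. The part of GC content and of CDKN1A in the low values was not tested.

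**Figure D4:**
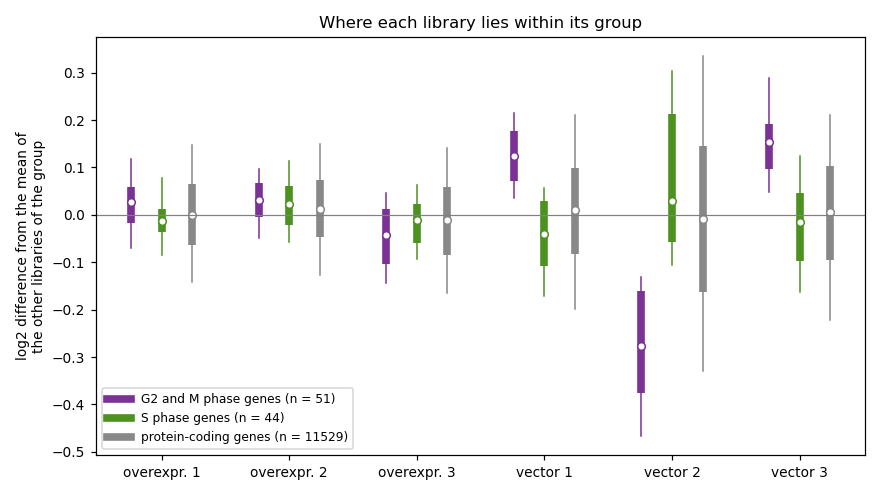
Log2 difference of each library from the mean of the other libraries of its group, with overexpression left of vector, for G2 and M phase genes (purple), S phase genes (green) and protein-coding genes (grey); circles are medians, thick bars run from percentile 25 to 75 of the genes and thin lines from percentile 10 to 90. The purple median of vector replicate 2 is at -0.28, where the green one is at 0.029 and the grey one at -0.0094.

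**Figure D5:**
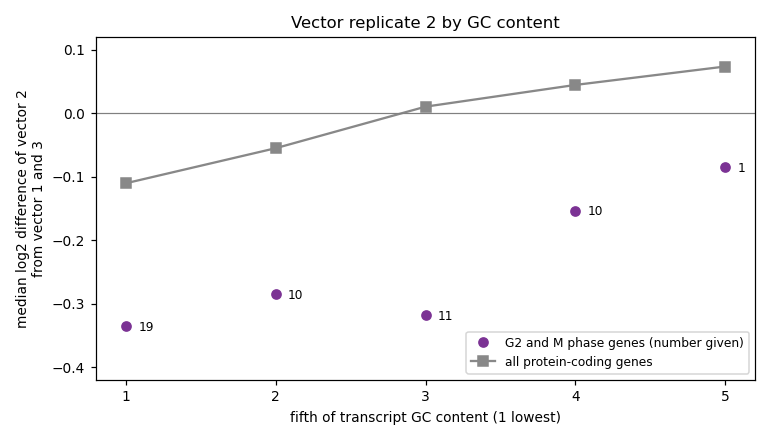
Median log2 difference of vector replicate 2 from vector replicates 1 and 3 in 5 equal bins of transcript GC content, for G2 and M phase genes (circles, with their number) and all protein-coding genes (squares). The circles lie below the squares in each bin, by -0.34 against -0.11 in the lowest.

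The factors that act on these promoters mostly fell. Of 22 genes of the DREAM and MuvB complexes, E2F and RB families, FOXM1 and NF-Y, 15 fell and 3 rose, where 23.4% and 22.6% of all genes did, with a median log2 fold change of -0.23. RB1, the retinoblastoma protein gene, fell 1.95-fold, with 234, 239 and 221 CPM in overexpression, against 462, 431 and 461 CPM in vector (edgeR adjusted p = 5.8e-06). E2F5, a repressor E2F, fell 2.09-fold (log2 fold change -1.06 ± 0.068). The activator E2F2 and the atypical repressor E2F8 rose, by 0.48 ± 0.049 and 0.38 ± 0.06. Without vector replicate 2 the median was -0.24 with 16 falls and 4 rises.

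Genes that hold CDK1 in check or release it moved both ways, with 6 falls and 4 rises among 15. Over all genes tested, to be read beside each count here, 23.4% fell and 22.6% rose. PKMYT1, the membrane kinase that inhibits CDK1, rose 1.57-fold, with 129, 135 and 136 CPM in overexpression, against 85.6, 84.5 and 85.3 CPM in vector. CHEK1 and CDC25A, which encode the checkpoint kinase CHK1 and a CDK-activating phosphatase it controls, fell, with log2 fold changes of -0.57 ± 0.06 and -0.5001 ± 0.047, and ENSA, which encodes an inhibitor of the mitotic phosphatase PP2A, rose by 0.196 ± 0.046. Among 18 genes of the anaphase promoting complex 4 fell and 3 rose, with a median of -0.0152, and neither count was above the share over all genes. ANAPC1, its largest subunit, fell by 0.63, UBE2S, the E2 that extends the chains UBE2C starts, fell by 0.25, and ANAPC16 and the securin gene PTTG1 rose by 0.43 ± 0.066 and 0.35 ± 0.059. Of 12 spindle assembly checkpoint genes 7 fell and 2 rose. MAD2L1, the checkpoint effector, fell by 0.68 and TRIP13, the ATPase that recycles it, by 0.48, while KNTC1, of a checkpoint complex at the kinetochore, and MAD1L1, the anchor of MAD2, rose by 0.59 ± 0.084 and 0.21 ± 0.065. MAD1L1 had no call in 7 of the 14 alternatives (adjusted p up to 0.11).

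Structural genes of mitosis outside the list did not share one direction either. Over all genes tested 22.6% rose and 23.4% fell, or 24.1% and 25.4% without vector replicate 2. Of 28 other kinetochore and centromere genes 13 rose and 5 fell, or 12 and 8 without vector replicate 2, with CENPU and CENPM at 0.65 ± 0.061 and 0.49 ± 0.055 and CENPN and CENPP at -0.48 ± 0.047 and -0.32 ± 0.068. Of 16 condensin and cohesin genes 10 fell and 2 rose, with the condensin II gene NCAPD3 at -0.53 ± 0.046, the cohesin cofactor gene PDS5A at -0.47 ± 0.048, SMC1A at 0.199 ± 0.043 and NCAPG2 at 0.24 ± 0.086, the last with 0.13 without vector replicate 2 and no call in 7 of the 14 alternatives (adjusted p up to 0.13). Of 18 other motors and spindle genes 6 rose and 3 fell, or 7 and 5 without vector replicate 2. TUBG1, the gamma tubulin gene, and CIT, citron kinase, rose by 0.68 ± 0.043 and 0.66 ± 0.084, and PRC1 and ASPM, which bundle and focus spindle microtubules, fell by 0.94 and 0.54. Vector replicate 2 was the lowest vector library in 17 of these 18 genes and in 15 of the 16 condensin and cohesin genes.

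The S phase genes gave the nearest comparison. Of 44, 14 fell and 8 rose, with a median log2 fold change of -0.067, against 19 falls and 9 rises among the 51 G2 and M phase genes and a median of -0.11. Over all genes tested 23.4% fell and 22.6% rose, or 25.4% and 24.1% without vector replicate 2. Without vector replicate 2 the S phase genes had 17 falls and 13 rises and a median of -0.0193, where the G2 and M phase genes had 30 and 9 and -0.19. The summed S phase level was 7675, 7768 and 7678 CPM in overexpression, against 7811, 8584 and 7833 CPM in vector. The vector library with the lowest G2 and M phase sum thus had the highest S phase sum. Single S phase genes were divided, since vector replicate 2 was the highest vector library in 21 of the 44 and the lowest in 16. Its median difference over them was 0.029. The calls with the smallest adjusted p were CDC45 and WDR76, higher by 0.49 ± 0.045 and 0.49 ± 0.057, and RRM1 and BLM, lower by 0.39 each. No test of the difference between the 2 lists was made.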

How the data were processed

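Estimated counts (expected counts, here whole numbers that needed no rounding) came from 1 deposited table with a row per gene symbol and a column per library, unscaled. The submitters' processing notes name fastp 0.23.2, STAR 2.7.10a, StringTie, DESeq2 and hg38. Annotation release and strand setting are not given in the sources used here, so reads of overlapping or antisense genes cannot be told apart. In every library more genes were listed at 4 than at 3, and what 1 read adds was not settled, so counting intervals are left out. Here, edgeR 4.0.16 in R 4.3.3 filtered genes with filterByExpr, applied TMM factors and ran its quasi-likelihood test on group alone. P-values were adjusted by Benjamini-Hochberg over all genes tested, with 0.05 as threshold, and each SE was derived from the F statistic. The code was first run on simulated counts with known changes. CPM used TMM-adjusted library sizes, and differences within a group used log2(CPM + 0.1). Gene positions, transcript lengths and GC content are from GENCODE 29 and promoters from RefSeq, both matched by symbol. Nothing in the labels says the replicates were separate cultures: p-values reflect the spread between these libraries alone, which may be technical. Alternatives were DESeq2 1.42.0, limma-voom (limma 3.58.1), DESeq2 and upper-quartile factors, no filter, a stricter filter, a replicate block, each library left out and, chosen after seeing the data, division by 4. Members, roles, lists and named genes were chosen with earlier results of these data known, and the pairs of related genes were taken from those members. Every member was accounted for, and each other list gave up to 2 called genes of smallest adjusted p per direction. Python with matplotlib 3.10.9 drew the figures.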

Additional observations from a re-analysis of the deposited data

How the results depend on the processing

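Over the 14 alternatives, 17 of the 28 called members kept their call in each, 3 of them higher and 14 lower, and no called member changed direction. Leaving out single libraries gave 3 to 10 members higher, 14 to 30 members lower, a median log2 fold change of the members from -0.19 to -0.055, and 7916 to 10868 genes called in all. With all libraries the other settings gave 7 to 12 members higher, 18 to 23 lower and 8684 to 10226 genes called. The replicate block gave 8 members higher and 18 lower and 8690 genes in all; it ended the calls of CKAP2, TACC3 and NCAPD2 (adjusted p = 0.099, 0.059 and 0.053) and added CDC25C, but the libraries share only a number, since same-numbered libraries did not deviate together (correlations 0.0214, 0.00302 and 0.00513). Upper-quartile factors moved the median of all genes to 0.065, against 0.016 with TMM, and the split of calls to 54.6% higher and 45.4% lower.

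Uncalled members near 0 changed sign. CDK1 was -0.0064 with DESeq2, -0.00646 with its size factors and -0.00899 with no filter. With limma-voom, upper-quartile factors, the stricter filter (averages of 1 CPM and 50 estimated counts or more), the replicate block and division by 4, AURKB was 0.00864, 0.047, 0.0133, 0.00218 and 0.00595, KIF23 0.020, 0.048, 0.0137, 0.00898 and 0.00758, and SMC4 0.0125, 0.044, 0.00976, 0.00374 and 0.00178. With single libraries left out, CDK1 ran from -0.070 to 0.037, AURKB from -0.088 to 0.038, KIF23 from -0.13 to 0.055, SMC4 from -0.13 to 0.056, AURKA from -0.020 to 0.19, NDC80 from -0.042 to 0.14, TPX2 from -0.049 to 0.11, CKAP2L from -0.078 to 0.21 and G2E3 from -0.15 to 0.011.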

Other observations

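Genes of the nuclear lamina and the Ran cycle, which the cell takes apart and rebuilds around mitosis, mostly fell. Of 14 tested, 10 fell and 1 rose, with a median log2 fold change of -0.38, against 23.4% of all genes lower and 22.6% higher. XPO1, the main nuclear export receptor, had 279.6, 286 and 265 CPM in overexpression, against 515, 495 and 536 CPM in vector, a 1.86-fold fall (edgeR adjusted p = 7.4e-06). RANBP2, the pore protein to which RANGAP1 is tethered, had 183, 179 and 186 CPM in overexpression, against 332, 328 and 337 CPM in vector, a 1.82-fold fall (edgeR adjusted p = 4.1e-06). The one rise was LMNA, the lamin A gene, at 1.06 ± 0.24 on the log2 scale. Its level was the lowest of the list, at 4.67, 3.51 and 3.5 CPM in overexpression, against 1.71, 1.51 and 2.38 CPM in vector. In this list the median log2 difference of vector replicate 2 from the other vector libraries was 0.032, and without it 10 genes fell and 2 rose.

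Of 10 tubulin genes outside the list 3 fell and 1 rose, or 3 and 2 without vector replicate 2, where TUBA1A was added at 0.25 (edgeR adjusted p = 0.0031). Over all genes tested 23.4% fell and 22.6% rose, or 25.4% and 24.1% without that library. TUBA1C and TUBB3 fell by 0.39 and 1.07 on the log2 scale, and TUBG1 rose by 0.68 ± 0.043. Tubulin genes share long stretches of sequence, and their counts are uncertain to that extent.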
